A study of Mus musculus with 4 samples.

Results

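Transcripts of 8 ligands of the tumour necrosis factor (TNF) family were followed in sorted mouse regulatory T (Treg) cells: Cd40lg, Tnfsf8, Tnfsf10, Tnfsf11, Tnfsf14, Tnf, Lta and Ltb. They were taken by name, and all 8 were found among the 22056 genes that the spleen and lymph node expression matrices share. The study compared Treg cells of C57BL/6 mice that were ICOS WT with those of ICOS-deficient mice, labelled ICOS FC, by droplet single-cell 3′ RNA sequencing. Live cells positive for CD4, TCRβ and a YFP reporter were sorted to over 95% purity, and YFP positivity was common to all groups. There were 4 groups with 1 library each: spleen at steady state from ICOS WT mice, spleen at steady state from ICOS FC mice, and cervical draining lymph nodes (LN) on day 1 of an oxazolone challenge from each of the 2 genotypes. Oxazolone is a contact sensitiser that inflames the skin it is painted on. The sources used here do not give the driver of YFP, the extent of the ICOS FC deletion, or the number, age and pooling of the mice.

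Ligands of the TNF family are mostly trimers that sit in the membrane or are shed from it, and they signal through receptors of the TNF receptor family, many of which recruit TRAF adaptors and activate NF-κB. On T cells they pass help, death or organising signals to neighbouring cells: CD40 ligand licenses B cells and dendritic cells, TRAIL can trigger death receptors, RANKL acts on osteoclast precursors and lymphoid stroma, and lymphotoxins maintain the architecture of lymphoid organs. Several are induced by T cell receptor signalling, and TRAIL is known as an interferon-inducible gene. CD40 ligand is best known from activated conventional CD4 T cells.

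The genes of TNF and the lymphotoxins lie side by side on chromosome 17 (GRCm38): Ltb at chr17:35194439-35196320 on the plus strand, Tnf at chr17:35199381-35202007 and Lta at chr17:35203165-35205351, both on the minus strand. Tnfsf14 lies on the same chromosome at chr17:57189492-57194177. Cd40lg is at chrX:57212143-57224042, Tnfsf8 at chr4:63831308-63861347, Tnfsf10 at chr3:27317028-27342427 and Tnfsf11 at chr14:78277445-78308043. RefSeq promoter entries (GRCm38.p6) were matched for 7 of the 8 genes. The bases just before the annotated start of transcription are given for Tnf and Tnfsf14, whose transcripts, summed over both libraries of a tissue, were highest in the same clusters, and for Tnfsf10, which was highest in the clusters led by interferon-response genes. They cover chr17:35202008-35202257 and chr17:57194182-57194431 on the minus strand and chr3:27316827-27317027 on the plus strand, each written 5′ to 3′ along its gene. Capitals mark matches on either strand to a κB-like motif, which is GGG, then any 5 bases, then CC.
Tnf: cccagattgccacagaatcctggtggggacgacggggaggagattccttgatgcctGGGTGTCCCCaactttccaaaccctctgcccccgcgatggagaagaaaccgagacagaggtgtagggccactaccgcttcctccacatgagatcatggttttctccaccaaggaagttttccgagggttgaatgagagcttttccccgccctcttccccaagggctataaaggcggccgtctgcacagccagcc
Tnfsf14: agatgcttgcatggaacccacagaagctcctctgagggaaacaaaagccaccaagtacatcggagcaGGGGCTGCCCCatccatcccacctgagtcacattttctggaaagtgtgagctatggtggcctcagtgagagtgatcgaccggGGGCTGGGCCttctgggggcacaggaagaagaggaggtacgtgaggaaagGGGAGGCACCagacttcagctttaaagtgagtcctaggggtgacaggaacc
Tnfsf10: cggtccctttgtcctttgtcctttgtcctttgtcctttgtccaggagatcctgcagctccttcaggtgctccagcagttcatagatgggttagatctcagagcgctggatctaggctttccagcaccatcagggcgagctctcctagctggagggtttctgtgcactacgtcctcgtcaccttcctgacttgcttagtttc
The motif matched 1 time in the Tnf run and 4 times in the Tnfsf14 run, where matches overlap, and it was not found in the Tnfsf10 run. It is common: 45.8% of 32851 mouse promoter windows of 250 bases hold it. The interferon-stimulated response element, searched as GAAA, any 2 bases and GAAA again, is held by 2.98% of windows and was found in none of the 7 entries. A short NFAT core, GGAAAA, held by 20.4% of windows, matched 2 times in the Tnf run and in no other entry, and the AP-1 motif TGANTCA, held by 6.75%, matched 1 time, in the Tnfsf14 run. A match describes letters only, and the absence of one says nothing about the factor.

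The protocol states 12000 cells prepared for sequencing. The libraries held 4995 and 5917 spleen cells and 1897 and 2066 LN cells (ICOS WT and ICOS FC in each pair), with medians of 4361 to 6789 unique molecular identifiers (UMIs, counted molecules) per cell and 15045805 to 28256866 UMIs per library. Between 1 and 30 cell barcodes were shared by any pair of libraries, at most 1.58% of the smaller. Transcripts of Foxp3, the transcription factor that defines Treg cells, were at 53.2 and 59.0 UMIs per 1000000 (CPM) in spleen and 72.2 and 70.7 in LN, and all 12 Treg identity genes reached 5 CPM in every library. Icos transcripts were higher, not lower, in the libraries labelled ICOS FC: 112 against 258 CPM in spleen and 599 against 928 CPM in LN. Because 3′ tags may lie outside the deleted part, Icos checks neither label, and the libraries are called by their labels throughout. The CD8 T and NK cell markers summed to 33.1 to 68.1 CPM and the B cell markers to 16.4 to 29.9 CPM. With 1 library per group no test between groups is possible. Ratios carry a 95% interval from the Poisson error of counting alone, so they compare these libraries and not the genotypes.

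Ltb, the membrane-anchoring subunit of lymphotoxin, was the most abundant of the 8 ligands in every library, and Tnfsf14 the least. Transcripts were counted by their 3′ ends, so these levels need no correction for length. Ltb stood at 1317 and 1426 CPM in the spleen libraries labelled ICOS WT and ICOS FC and at 1028 and 1224 CPM in LN. It was detected in 94.6% to 97.4% of cells. Tnfsf8 (CD30 ligand) came next, at 61.4 and 91.3 CPM in spleen and 62.7 and 72.9 CPM in LN. Tnfsf14 (LIGHT, a ligand of HVEM and the lymphotoxin β receptor) had 6.33 and 3.57 CPM in spleen and 6.51 and 2.08 CPM in LN. The other 5 genes lay between 10.2 and 40.0 CPM in all libraries. Apart from Ltb these ligands were therefore sparse: with cells thinned to a common depth of 2000 UMIs, none of the other 7 genes was found in 70.8% (ICOS WT) and 71.6% (ICOS FC) of cells from spleen and in 63.9% and 69.5% from LN. Such shares depend on depth: before thinning, Tnfsf8 alone was found in 23.1% to 33.3% of the cells of a library.

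**Figure D1:**
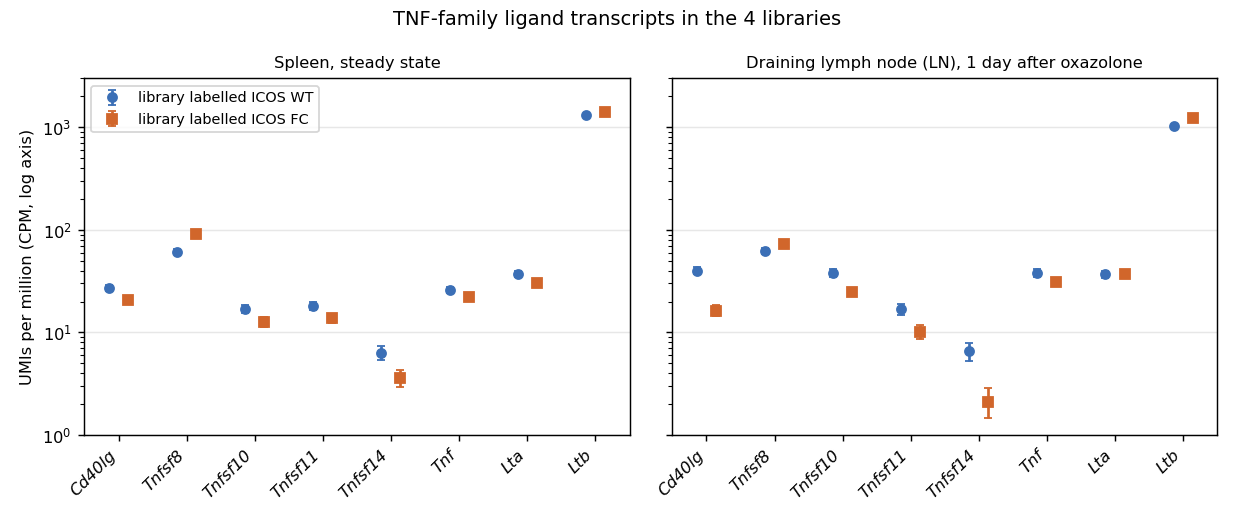
CPM (log axis) of the 8 ligands in the 4 libraries, with 95% Poisson intervals for counting error. Ltb lies between 1028 and 1426 CPM, and Cd40lg shows the widest gap between labels in LN among the genes above 20 CPM.

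Cd40lg, the ligand of CD40, was lower under the ICOS FC label in spleen and in LN, and the gap was wider in LN. In LN it had 602 UMIs (40.0 CPM) under the ICOS WT label and 283 UMIs (16.3 CPM) under ICOS FC. The log2 ratio was -1.29 (95% interval -1.50 to -1.09), or 2.45-fold lower, the 9th lowest of 5506 genes tested. In spleen it had 27.0 and 20.7 CPM, a log2 ratio of -0.38 (-0.54 to -0.22). A Cd40lg UMI was found in 307 LN cells (16.2%) under ICOS WT and 184 (8.91%) under ICOS FC, or 6.18% and 3.39% of cells thinned to equal depth, and the detected cells held 1.96 and 1.54 UMIs each. The 10 LN cells with most Cd40lg held 28.9% of its UMIs under ICOS WT and 18.4% under ICOS FC. Cd79a, a B cell gene that Treg cells should lack, was found in 0.204% to 0.349% of thinned cells, and Lyz2, a myeloid gene, in 0.656% and 1.30% of thinned LN cells. The Cd40lg shares lay above these in all 4 libraries. That does not bound stray Cd40lg RNA from other cells, which was not measured. Fewer cells that make a transcript and less of it per cell cannot be told apart in a summed level.

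Tnfsf8, whose product engages CD30, was higher under the ICOS FC label in both tissues. In spleen it had 61.4 CPM (1669 UMIs) under ICOS WT and 91.3 CPM (2579 UMIs) under ICOS FC, a log2 ratio of 0.57 (0.48 to 0.66) that ranked 34th highest of 5105 genes. At 1.49-fold it fell just short of the 1.5-fold rule. In LN its levels of 62.7 and 72.9 CPM gave 0.22 (0.10 to 0.34). Ltb was also slightly higher under ICOS FC, by 0.11 in spleen and 0.25 in LN on the log2 scale.

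Tnfsf10, which encodes TRAIL, was lower under the ICOS FC label. Its level was 38.1 and 24.9 CPM in LN (log2 ratio -0.61, -0.79 to -0.43, or 1.53-fold lower) and 17.0 and 12.7 CPM in spleen (-0.42). The 10 interferon-response genes summed to 9130 and 7320 CPM in the same LN libraries and to 1751 and 2050 CPM in spleen. The sum was thus lower under ICOS FC in LN and higher in spleen, and the part of these genes in the Tnfsf10 ratios was not tested. Tnfsf11 (RANKL) followed the same direction as Tnfsf10, with 18.0 and 13.8 CPM in spleen (-0.39) and 16.7 and 10.2 CPM in LN (-0.72). Tnfsf14 had the lowest ratios of all 8 genes, -0.82 (-1.19 to -0.46) in spleen and -1.65 (-2.24 to -1.08) in LN, on counts of 172 and 101 UMIs in spleen and 98 and 36 in LN.

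Tnf and Lta, whose products bind the TNF receptors, differed less between labels. Tnf was at 26.0 and 22.2 CPM in spleen (-0.23) and 38.0 and 30.8 CPM in LN (-0.31). Lta, which forms soluble lymphotoxin α or joins Ltb in the membrane, was at 37.1 and 30.6 CPM in spleen (-0.27). In LN it was nearly level, at 36.9 and 37.0 CPM, with a log2 ratio of 0.01 (-0.16 to 0.17).

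Genes were called when they reached 20 CPM in one library or the other and differed at least 1.5-fold with a counting interval clear of equality. In LN, 2 of the 6 ligands with 20 CPM were called lower under ICOS FC (Cd40lg and Tnfsf10), where 1.05% of all genes tested were, and none was called higher, against 1.11% of all genes (2.16% in either direction). In spleen none of 5 was called, against 0.588% of all genes called higher and 0.255% called lower (0.842% in either direction). By direction only, the intervals of 6 of 8 ligands lay below equality in spleen and those of 2 above it, where 19.3% and 12.1% of genes with at least 5 CPM did. In LN the counts were 5 below and 2 above, where 23.5% and 16.3% of genes did. The Tnfsf10 call was lost, leaving 1 of the 2, when the libraries were scaled by trimmed mean of M values or median-of-ratios factors. It was also lost with clusters weighted equally, in cells with a Foxp3 UMI and in cells under 5% mitochondrial counts. The median log2 ratio of the 8 ligands was -0.32 in spleen and -0.45 in LN, beside -0.03 and -0.04 for all genes with at least 5 CPM.

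**Figure D2:**
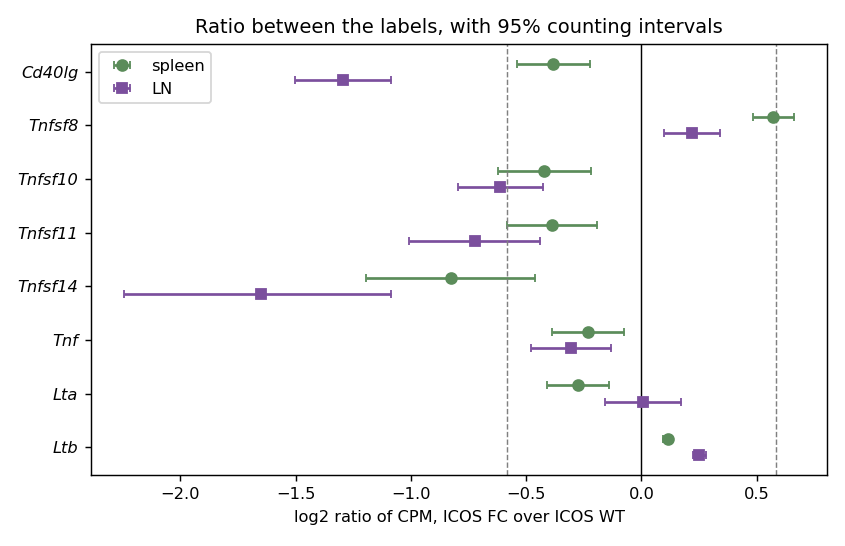
log2 ratio of CPM, library labelled ICOS FC over ICOS WT, for each ligand in spleen (circles) and LN (squares), with 95% counting intervals; dashed lines mark 1.5-fold. Tnfsf8 and Ltb lie above 0 in both tissues, Lta in LN lies on it, and the other genes lie below it in both.

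Between tissues, Tnfsf10 differed most. Its LN level was 2.25-fold that of spleen under ICOS WT (log2 1.17, 0.99 to 1.35) and 1.97-fold under ICOS FC (0.98, 0.77 to 1.18), beside a median of 0.13 over all genes under either label. The rule between tissues asked for 2-fold under both labels, and 0 of the 8 ligands met it, where 4.36% of genes were called higher in LN and 0.282% lower (4.64% in either direction). Tnf was also higher in LN, by 0.55 and 0.47, and Ltb was lower, by -0.36 and -0.22. For Cd40lg the order depended on the label: LN exceeded spleen under ICOS WT (0.57) and lay below it under ICOS FC (-0.34). Organ, challenge and expression matrix differ together here and cannot be told apart.

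The deposited cell clusters, numbered within each tissue, show where each ligand was found. They were made from all genes of these cells, so levels by cluster are a description. Cd40lg was highest in spleen cluster 4, at 57.7 CPM (52.4 to 63.4) over both libraries; under ICOS WT alone cluster 5 had 57.8 CPM and cluster 4 had 56.0 CPM. Cluster 4 is led by Pdlim4, Nacc2, Klrd1 and Dapl1, and Foxp3 stood there at only 4.03 CPM, beside 42.5 to 79.9 CPM in the other 6 clusters. None of the 12 Treg identity genes was higher in cluster 4 than in the other cells, whereas 5 of the 10 conventional CD4 T cell genes, 8 of the 10 resting Treg genes and 3 of the 8 CD8 T and NK cell genes were. It held 32.5% of all spleen Cd40lg UMIs in 12.8% of the cells. In LN the highest level was in cluster 7, at 216 CPM under ICOS WT and 98.3 CPM under ICOS FC. This small cluster of 123 cells is led by Egr3, Cd8a, Ifitm1 and Klrd1, so genes of T cell receptor activation and of CD8 and NK cells lead it together. None of the 12 Treg identity genes was higher there than in the other LN cells. Higher there were 5 of the 10 conventional CD4 T cell genes, 3 of the 10 resting Treg genes and 5 of the 8 CD8 T and NK cell genes. The cluster held 123 of 602 Cd40lg UMIs under ICOS WT and 48 of 283 under ICOS FC. Cd8a stood there at 174 and 170 CPM. Over all thinned LN cells, a Cd8a UMI was found in 0% of the 113 (ICOS WT) and 68 (ICOS FC) cells with Cd40lg. It was found in 0.875% and 0.619% of those without. The intervals of the former reached 3.21% and 5.28%, so Cd8a was too sparse to show whether the cells with Cd40lg were those with Cd8a.

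Tnf was highest in the clusters led by T cell receptor response genes in every library, and Tnfsf14 in 3 of the 4. Over both libraries, spleen cluster 5, led by Ccl4, Ccl3, Egr3 and Nr4a1, had 73.5 CPM of Tnf and 16.9 CPM of Tnfsf14, and LN cluster 7 had 123 and 36.9 CPM. The Tnf level of spleen cluster 5 stood clear of the next cluster (33.3 CPM), whereas the interval of Tnfsf14 overlapped that of the effector Treg-like cluster 2 (11.7 CPM). By library, Tnfsf14 in spleen cluster 5 had 26.8 CPM under ICOS WT, but under ICOS FC it had 7.17 CPM, beside 7.87 CPM in cluster 2 and 7.23 CPM in cluster 1. Tnfsf10 was highest in the interferon response-like clusters, at 48.1 CPM in spleen cluster 6 and 64.5 CPM in LN cluster 5. The former is small, with 47 and 117 cells. In LN its interval overlapped that of cluster 6, which was the higher of the pair under ICOS FC (56.0 and 52.3 CPM).

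Tnfsf11 and Tnfsf8 were highest among follicular Treg-like cells in spleen. Cluster 1 there, led by Sostdc1, Lag3, Il10 and Tox2, had 45.8 CPM of Tnfsf11, 20.02-fold the lowest cluster, and 160 CPM of Tnfsf8. In LN the follicular Treg-like cluster 2 again had the highest Tnfsf11 level (32.5 CPM), with overlapping intervals to clusters 7 (25.6 CPM) and 4 (24.1 CPM), and Tnfsf11 was among the 10 genes that lead it. Tnfsf8 had its highest LN level in cluster 7, at 141 CPM, and lay between 103 and 106 CPM in clusters 5, 6 and 2. The interval of cluster 7 overlapped those of clusters 5 and 6. Lta over both spleen libraries was highest in clusters 0 (48.5 CPM) and 1 (45.8 CPM), which overlapped. The order differed by library: under ICOS WT clusters 1 (58.7 CPM) and 5 (55.9 CPM) exceeded cluster 0 (48.6 CPM), and under ICOS FC cluster 0 (48.3 CPM) exceeded cluster 1 (35.6 CPM). In LN it was highest in cluster 6 (83.1 CPM), whose cells had a median of only 1959 UMIs and are led by class II antigen-presentation genes. That level rests on 20 and 14 Lta UMIs (ICOS WT and ICOS FC). Its interval overlapped those of clusters 2 (53.1 CPM) and 7 (44.5 CPM). Ltb was the most even of the genes, with 1.73-fold between the highest and lowest clusters in spleen and 1.72-fold in LN.

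**Figure D3:**
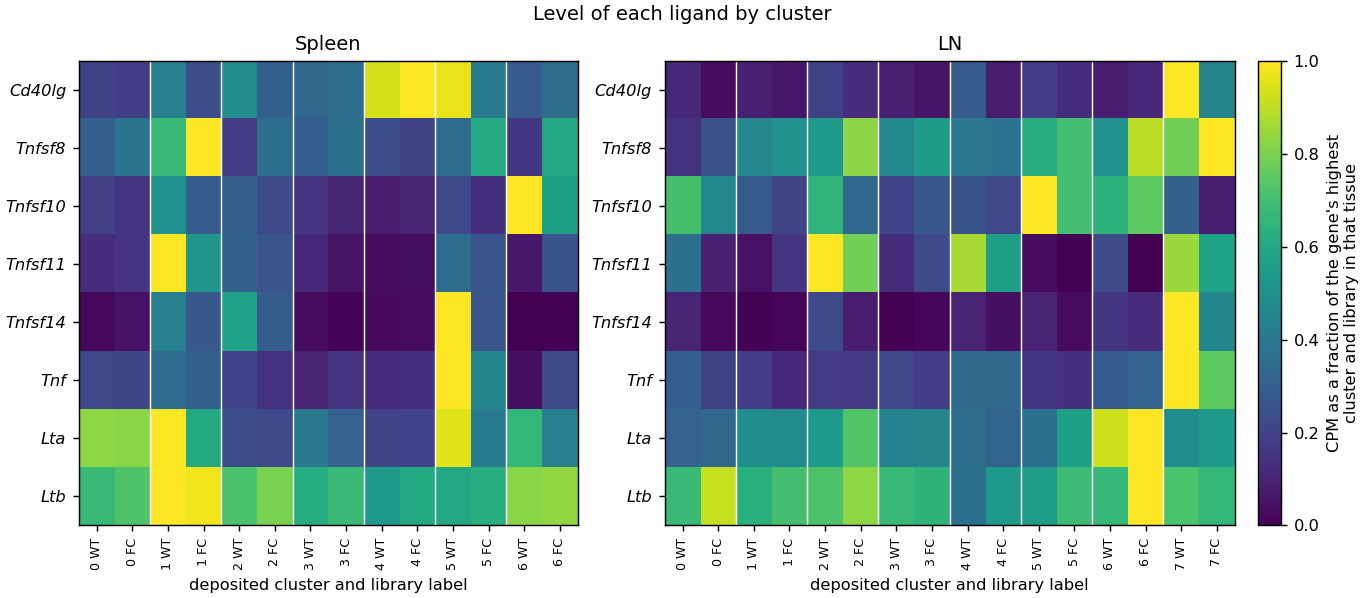
Level of each ligand by deposited cluster and library label, as a fraction of the gene's highest value in that tissue (colour). Cd40lg peaks in spleen cluster 4 and in the ICOS WT column of spleen cluster 5 and LN cluster 7, Tnf in spleen cluster 5 and LN cluster 7, Tnfsf14 in their ICOS WT columns, Tnfsf10 in the ICOS WT columns of spleen cluster 6 and LN cluster 5, and Ltb is the most even.

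Within clusters, the lower Cd40lg level under ICOS FC was seen in each LN cluster with enough UMIs for a ratio (7 of 7). It was widest in the effector Treg-like cluster 0, with 25.2 and 6.90 CPM (log2 ratio -1.87, -2.44 to -1.34), and in cluster 4, whose cells had a median of 12828 UMIs and are led by Shmt1, Hk2 and Srm, with 62.6 and 17.7 CPM (-1.83, -2.28 to -1.39). The Cd40lg ratios of clusters 1, 3 and 5 lay between -0.58 and -0.46 with intervals that include equality. Without LN clusters 6 and 7 the LN levels were 33.4 and 13.9 CPM (-1.27), and in LN cells with a Foxp3 UMI they were 26.8 and 11.0 CPM (-1.29). The conventional CD4 T cell genes summed to 774 and 637 CPM in the 2 LN libraries, and Il17a was at 0 under ICOS WT.

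In spleen the picture was split by cluster. Cd40lg was lower under ICOS FC in cluster 5 (57.8 and 24.5 CPM, -1.24), the follicular Treg-like cluster 1 (25.7 and 14.3 CPM, -0.85) and the effector Treg-like cluster 2 (29.2 and 18.3 CPM, -0.68). In cluster 4, where Foxp3 was low, the Cd40lg levels were 56.0 and 59.9 CPM (0.10, -0.18 to 0.38). The resting Treg-like cluster 3 gave 0.12 and cluster 0 gave -0.10, both with intervals that include equality.

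Tnfsf8 was higher under ICOS FC in 5 of 6 spleen clusters and 7 of 8 LN clusters. Its interval lay above equality in 4 of the spleen clusters and in only 2 of the LN ones, clusters 0 and 2. The largest spleen ratio was in effector Treg-like cluster 2, with 33.5 and 67.6 CPM (1.01, 0.72 to 1.31). Spleen cluster 4 was the exception in direction (43.9 and 35.9 CPM, -0.29, -0.64 to 0.05). In LN the effector Treg-like cluster 0 had 23.2 and 39.4 CPM (0.76, 0.42 to 1.11). A lower Cd40lg beside a higher Tnfsf8 under ICOS FC was seen in these effector Treg-like clusters and also in the follicular Treg-like ones, spleen cluster 1 (-0.85 and 0.57) and LN cluster 2 (-0.64 and 0.62), and in spleen cluster 5. Spleen cluster 5, where Tnfsf8 had 65.1 and 114 CPM (0.81), showed further differences. Tnf had 102 and 46.0 CPM (-1.14), Lta 55.9 and 23.9 CPM (-1.23) and Tnfsf14 26.8 and 7.17 CPM (-1.90). Cluster 5 made up 3.84% and 3.85% of the cells of the 2 spleen libraries. The B cell gene Cd79a moved with these ligands there, with 17 UMIs (10.3 CPM) under ICOS WT and 2 UMIs (1.19 CPM) under ICOS FC, and the class II gene H2-Aa is among the 10 genes that lead the cluster; their part in the ratios was not tested. The 10 T cell receptor-activated genes summed over all spleen cells to 548 and 624 CPM. Tnfsf11 in the follicular Treg-like spleen cluster 1 had 62.6 and 32.5 CPM (-0.94, -1.23 to -0.66).

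**Figure D4:**
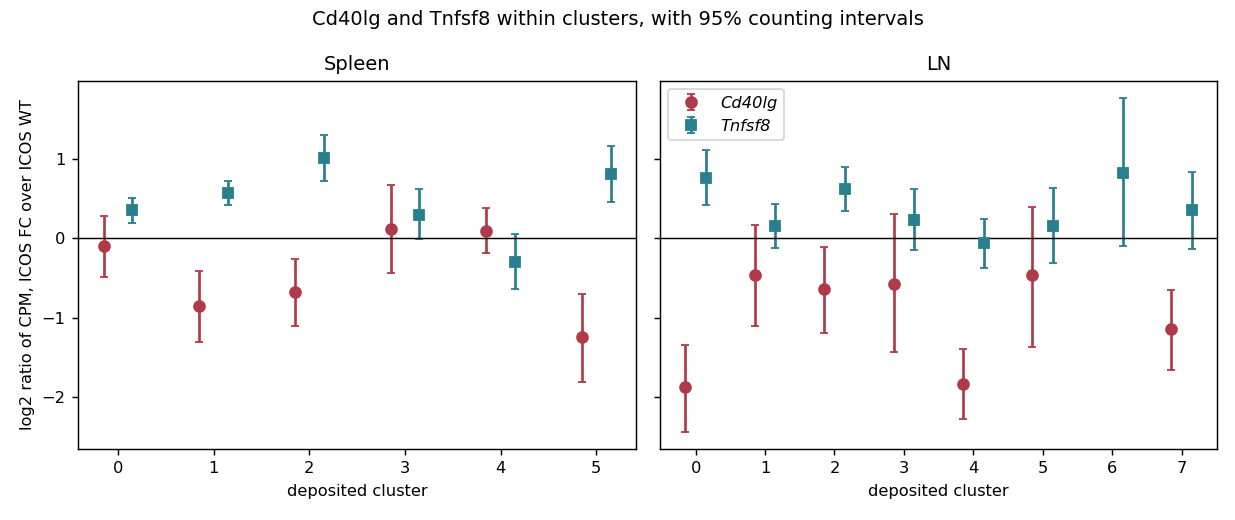
log2 ratio of CPM, library labelled ICOS FC over ICOS WT, of Cd40lg (circles) and Tnfsf8 (squares) within each cluster that had at least 50 cells of both libraries and 20 UMIs, with 95% counting intervals. Cd40lg lies below 0 in all 7 LN clusters shown, with the interval clear of 0 in 4. Tnfsf8 lies above 0 in 7 of 8, with the interval clear of 0 in 2.

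Cells thinned to 2000 UMIs were split by whether they held a Foxp3 UMI. Cd40lg was found in 2.73% of spleen cells with a Foxp3 UMI and 5.19% of those without under ICOS WT, and in 1.55% and 4.24% under ICOS FC. The order was the same in LN, at 4.55% and 6.49% and at 1.79% and 3.65%. The 95% intervals were apart in the spleen library labelled ICOS FC and overlapped in the other 3. Spleen cells with Cd40lg also less often held a UMI of Il2ra, the high-affinity interleukin-2 receptor chain typical of Treg cells, than cells without it (9.88% against 22.0% under ICOS WT and 10.6% against 22.9% under ICOS FC), and of Ikzf2, which encodes Helios (36.6% against 52.2%, and 29.96% against 55.8%).

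Lta showed the opposite order. It was found in 9.45% of spleen cells with a Foxp3 UMI and 6.21% of those without under ICOS WT, and in 8.54% and 5.08% under ICOS FC. The LN shares were 9.79% and 6.42%, and 11.8% and 6.54%. The intervals overlapped in the LN library labelled ICOS WT and were apart in the other 3. Il2ra was detected in 44.1% of Lta-positive spleen cells and 19.8% of the others under ICOS WT, in 42.2% and 21.3% under ICOS FC, and in 62.2% and 41.2% of LN cells under ICOS WT. Under ICOS FC the LN shares were 62.3% and 52.6%, with overlapping intervals. Ikzf2 was detected more often in spleen cells with Tnfsf10 (80.0% against 50.4% under ICOS WT and 75.3% against 54.3% under ICOS FC), with Tnfsf11 (75.5% against 50.6%, and 70.3% against 54.5%) and with Tnfsf14 (80.0% against 51.1%, and 77.5% against 54.7%). In LN the Ikzf2 intervals overlapped for each of these ligands under both labels. The order was reversed for Tnfsf11 under ICOS FC (52.6% against 67.1%), and the other LN shares of Ikzf2 were higher in cells with the ligand. Il2ra did not follow Ikzf2 throughout. In LN its shares with and without Tnfsf11 were 28.9% and 53.7% under ICOS FC, with intervals apart. Under ICOS WT they were 27.1% and 43.0%, with overlap. In spleen they were 26.4% and 21.3% under ICOS WT and 25.0% and 22.3% under ICOS FC. For Tnfsf14 in spleen the Il2ra shares were 11.7% and 21.5% under ICOS WT and 27.5% and 22.4% under ICOS FC. Failure to detect a Foxp3 UMI does not show that a cell lacks Foxp3.

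**Figure D5:**
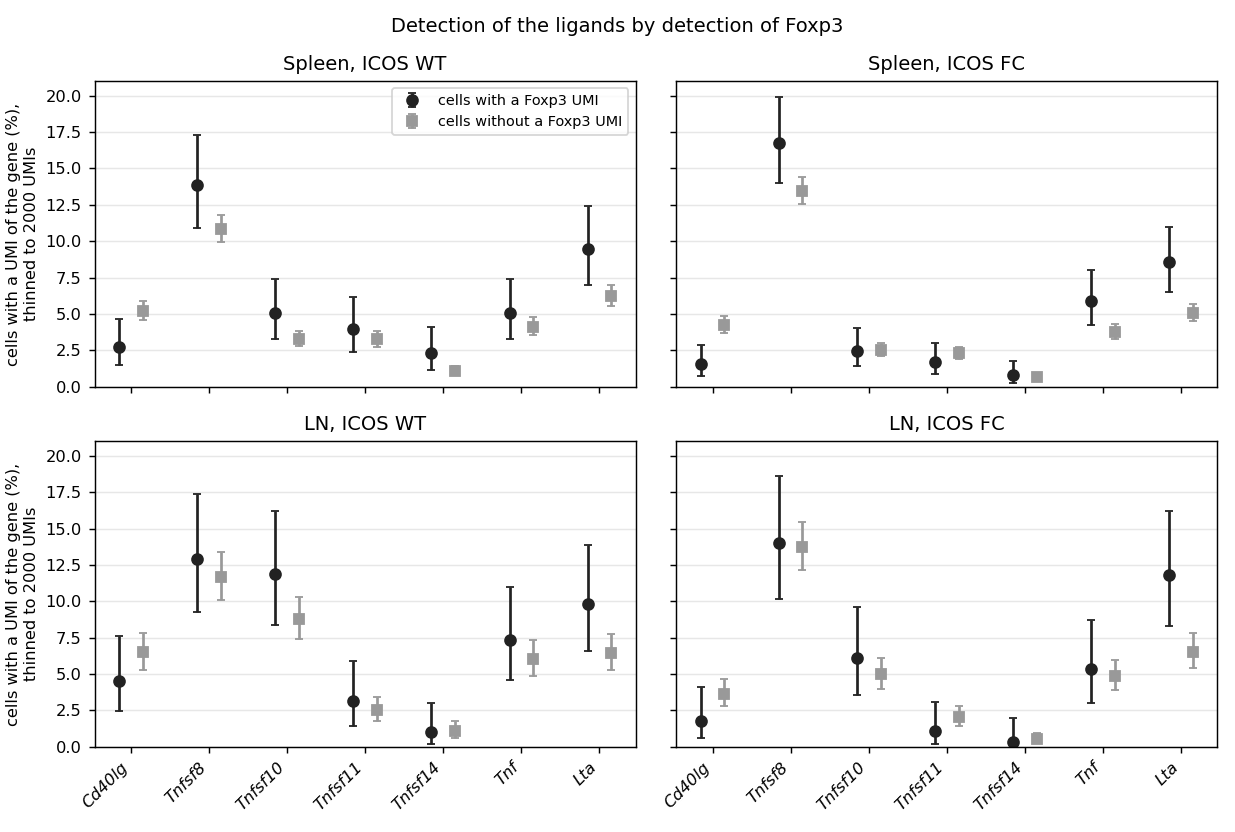
Share of cells, thinned to 2000 UMIs, with a UMI of each ligand among cells with (black circles) and without (grey squares) a Foxp3 UMI, with 95% Clopper-Pearson intervals. In all 4 libraries Cd40lg lies lower and Lta higher in cells with a Foxp3 UMI.

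Few cells held several ligands. Of the 7 genes other than Ltb, 3 or more were found in 0.571% (ICOS WT) and 0.330% (ICOS FC) of thinned cells from spleen and in 1.26% and 0.498% from LN. Lta was detected more often in cells with a UMI of its neighbour Tnf than in cells without one in 3 of the 4 libraries, in 11.1% of Tnf-positive and 6.32% of Tnf-negative spleen cells under ICOS WT, in 9.96% and 5.28% under ICOS FC, and in 15.2% and 6.87% of LN cells under ICOS FC. In the LN library labelled ICOS WT the shares were 7.89% and 6.88%, with overlapping intervals, and in every library most Tnf-positive cells had no Lta UMI. Across 29 cluster-by-library profiles, which share libraries and differ in depth, Tnf and Tnfsf14 had the highest Pearson correlation of any pair of the 8 ligands (r = 0.70, Spearman 0.53). Cd40lg correlated with Tnfsf14 at 0.59 (Spearman 0.46) and Tnfsf8 with Lta at 0.56 (0.55).

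Among 7772 genes, the profiles closest to Tnf over the same 29 points were those of Nfkbid (r = 0.90), Egr2 (0.89) and Slc41a1 (0.88), of which Egr2 and Nfkbid are known as genes induced by T cell receptor signalling. Tnfsf10 was closest to Slfn9 (0.86), Grn (0.86) and Tmem140 (0.84). Tnfsf11 was closest to Chst2, Phactr2 and Gcat (0.83 to 0.84), Tnfsf14 to Zfp36l1, Bcor and Gch1 (0.82 to 0.83) and Ltb to Gimap1, Gnpda2 and Neurl3 (0.87 to 0.89). Lta was closest to Lrrc32 (0.80), which encodes the Treg surface protein GARP, then to Lrrc8d and Skil. Looser likeness was found for Tnfsf8, closest to Ephx1 (0.65), Tbc1d4 and Glt28d2. Cd40lg was closest to Cd8b1 (0.71, Spearman 0.43), Klrc1 (0.69, Spearman 0.24) and Rgcc (0.68, Spearman 0.59). Cd8b1 and Klrc1 were lower by rank. By Spearman correlation, none of the genes named for Tnf, Tnfsf8, Tnfsf10 and Tnfsf11 was among the 3 closest, nor was Lrrc32 for Lta (0.66). Those that were comprised the genes named for Ltb, Bcor and Gch1 for Tnfsf14, Lrrc8d for Lta and Rgcc for Cd40lg.

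Few other genes of the pathway passed the rule. The list of receptors held 13 genes, among them Btla, which is a partner of the receptor HVEM and not a receptor of these ligands. Of the 13, 5 reached 5 CPM in spleen and 6 in LN. Only Tnfrsf1b and Btla had the 20 CPM a call needs in each tissue. Neither was called, beside 0.842% of all genes in spleen and 2.16% in LN. Tnfrsf1b, the TNF receptor prominent on Treg cells, had 35.6 and 49.3 CPM in spleen (0.47) and 104 and 137 CPM in LN (0.39). Btla, the inhibitory partner of HVEM, had 39.9 and 31.9 CPM in spleen (-0.32). Tnfrsf1a in LN had 14.95 and 10.7 CPM, and Tnfrsf26 had 17.4 and 11.7 CPM. The median log2 ratio of the listed genes with at least 5 CPM, Btla included, was -0.03 in spleen and -0.10 in LN.

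Of 20 adaptors and NF-κB signalling genes, 18 had 20 CPM in spleen and 1 was called, beside 0.842% of all genes in either direction. This was Tnfaip3, which encodes the NF-κB inhibitor A20, at 22.0 and 39.2 CPM (log2 ratio 0.83, 0.69 to 0.98). In LN it had 29.8 and 24.1 CPM (-0.30), and none of 17 was called, beside 2.16% of all genes. Nfkbia, another inhibitor and target of NF-κB, had 348 and 448 CPM in spleen (0.36) and 378 and 457 CPM in LN (0.27). Traf1 had 132 and 161 CPM in spleen (0.29) and 163 and 144 CPM in LN (-0.18). Birc2 had 88.7 and 105 CPM in spleen (0.24) and 83.3 and 68.8 CPM in LN (-0.28). The list's medians were -0.03 and -0.07. The dissociation stress genes had a summed level of 2310 and 3265 CPM in spleen (ICOS WT and ICOS FC) and of 2767 and 2646 CPM in LN, and their part in the spleen ratios was not tested.

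Of the 14 genes of shedding and mRNA decay, 10 in spleen and 11 in LN had 20 CPM, and none of these was called, beside the same 0.842% and 2.16% of all genes. Zfp36, which encodes tristetraprolin, a protein that destabilises Tnf mRNA, had 97.3 and 145 CPM in spleen (0.58) and 109 and 86.6 CPM in LN (-0.33). Rhbdf2, a partner of the TNF sheddase ADAM17, had 6.91 and 4.27 CPM in LN (-0.69), and Adam17 itself 25.8 and 22.5 CPM in spleen (-0.19). Of the 12 calcium and NFAT genes, 10 and 11 had 20 CPM, with no call and medians of -0.05 in both tissues. Ppp3cb had 54.1 and 46.8 CPM in spleen (-0.21) and 53.0 and 57.4 CPM in LN (0.11, -0.02 to 0.25). Nfatc2 had 29.6 and 26.8 CPM in spleen (-0.14, -0.29 to 0.0004) and 35.8 and 27.6 CPM in LN (-0.38). Of 10 other ligands of the family, 2 reached 5 CPM in spleen and 1 in LN: Fasl had 5.89 and 4.49 CPM in spleen (-0.39), and Tnfsf9, the ligand of 4-1BB, had 4.34 and 5.06 CPM in spleen and 9.44 and 6.92 CPM in LN (-0.45).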

How the data were processed

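Droplet 3′ libraries of 4 samples, 1 per group, were deposited as 2 expression matrices with cell metadata. Per the submitters' processing notes the tools were Cell Ranger 4.0.0, R 3.6.1 and Seurat 3.0 on GRCm38.p6 (mm10); the sources used here give neither their settings nor the annotation, nor whether doublets were removed, and no doublet caller was run. The deposited expression values are natural log values, ln(1 + UMIs per 10000), and 100% of the nonzero ones were turned back into whole UMIs within 0.001. The authors deposited counts of UMIs and genes per cell, which these UMIs equalled in all 10912 and 3963 cells. The percent of mitochondrial counts and the cluster numbers were used as deposited. Libraries named Control and KO in the metadata were read as ICOS WT and ICOS FC.

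UMIs were summed per library and cluster and divided by total UMIs (CPM). Ratios carry exact conditional Poisson intervals, shares Clopper-Pearson intervals (95%). Both cover counting error only. The rule of size (20 CPM, 1.5-fold, interval clear of equality) was applied to all genes. Gene positions are from GENCODE. Cells were thinned to 2000 UMIs (seed 1), leaving out 89, 155, 69 and 59 shallower cells, in the order spleen ICOS WT, spleen ICOS FC, LN ICOS WT, LN ICOS FC. A ratio within a cluster needed 50 cells per library, 20 UMIs, and none at 0. For each member the 3 most alike genes were named, by Pearson correlation of log2(CPM + 1). Genes of the pathway lists were ranked by how far the interval bound nearest to equality lay from it. Up to 3 of the leading genes per tissue were named, and some of higher rank than those named were left out. Cluster names rest on marker lists. The members, lists and rules were chosen with earlier results of these data known. The ratio script was tested on simulated counts. Alternatives changed the scaling, minimum, fold, cells and clusters. Python 3.11.15, numpy 2.4.6, pandas 2.3.3 and scipy 1.17.1 were used.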

Additional observations from a re-analysis of the deposited data

How the results depend on the processing

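No paired analysis was possible because each group is 1 library, and no replicate could be left out. The number of ligands past the rule of size in spleen, 0, became 1 with trimmed mean of M values factors, with median-of-ratios factors and without cluster 4 (Tnfsf8 each time), 1 with a minimum of 5 CPM or none (Tnfsf14), and 2 at a lower fold (Tnfsf8, Cd40lg), with clusters weighted equally (Tnfsf8, Tnfsf10) and in cells with a Foxp3 UMI (Tnfsf8, Lta). In LN the count of 2 became 1, Cd40lg alone, with trimmed mean of M values factors and with median-of-ratios factors. It was also 1 with clusters weighted equally, in cells with a Foxp3 UMI and in cells under 5% mitochondrial counts. It became 4 with a minimum of 5 CPM or none (Tnfsf11 and Tnfsf14 added). Between tissues the count of 0 became 2 at the lower fold (Tnfsf10, Tnf) and 1 (Tnfsf10) with thinned cells, with CPM averaged over cells, without the 5% of cells with most UMIs and in cells under 5% mitochondrial counts. The causes were not tested. The LN ratio of Cd40lg ranged from -1.29 to -0.87 over 11 alternatives, that of Tnfsf10 from -1.02 to -0.42, and the spleen ratio of Tnfsf8 from 0.32 to 0.76. The -0.87 is from the share of thinned cells with a UMI, an alternative chosen after seeing the data. Of the members' ratios between labels only that of Lta in LN, near 0, changed sign, under 2 of the 11. Over all spleen genes, 30 higher and 13 lower calls became 36 and 9 with trimmed mean of M values or median-of-ratios factors. They became 49 and 22 with totals without ribosomal and mitochondrial genes. The all-gene median between tissues, 0.13, became -0.04 and -0.02 with trimmed mean of M values factors. By the share of cells with a UMI the leading cluster stayed the same for 7 of 8 ligands in spleen and 4 of 8 in LN, and after thinning for 8 and 6. Depth limits the low genes most: Tnfsf14 rests on 36 to 172 UMIs per library.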
